A study of Mus musculus with 8 samples.

Results

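Among 263973 autosomal regions of an H3K27me3 comparison in mouse 3T3 fibroblasts, 4339 had summed values at least 4-fold higher in the libraries listed first than in those listed second. These regions, called 4-fold regions here, met 3 conditions on the values of the authors' deposited table. The sum of the first 3 values plus 1 was at least 4 times the sum of the next 3 values plus 1, the first sum was at least 100, and each of the first 3 values exceeded each of the next 3. The p value was not used. They made up 1.64% of the autosomal regions, and the whole table holds 265968 regions. Since these values chose the regions, the differences between the 2 sets of libraries are given as a description, with no test.

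3T3 cells are an immortalised mouse embryonic fibroblast line. They carried either an NNMT overexpression construct or a control construct, with 3 immunoprecipitated libraries and 1 input library of each. The libraries are labelled as replicates, and nothing says that they came from separate cultures. All cells, controls included, grew in medium limited to 10 µM methionine with 10% dialyzed serum, for 48 h per a label that speaks of RNA collection. They were crosslinked in 1% formaldehyde, and micrococcal nuclease was used to cut the chromatin. The labels do not say whether a line was 1 clone or a pool, nor which promoter drove the construct. The deposited table does not name its sets, so no direction below is tied to NNMT: the set listed first is called the first set and the other the second set.

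H3K27me3 is trimethylation of lysine 27 of histone H3. Polycomb repressive complex 2, whose catalytic subunit is Ezh2 or Ezh1, lays it down, and the Cbx subunits of Polycomb repressive complex 1 bind it. In differentiated cells such as fibroblasts the mark is known both at CpG-rich starts of silent developmental genes and as wide domains over silent genes and the DNA between them. NNMT, nicotinamide N-methyltransferase, uses S-adenosylmethionine, which is also the methyl donor of Ezh2.

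Like the listed regions at large, few 4-fold regions reached a gene start, and the starts they did reach held few CpG dinucleotides. A start lay inside or within 1 kb in 1.65% of 4-fold regions, against 1.95% of all autosomal regions. Of 19148 promoter windows of 300 bases (250 before to 50 after a start, 15644 named genes, RefSeq, GRCm38.p6), 18 touched a 4-fold region, or 0.094%. Any listed region touched 1793 of them. The dinucleotide CG occurred a median of 6 times in these 18 windows, from 0 to 12. The median was 5 in the 1793 windows touched by any listed region and 16 in the 17355 windows touched by none. At least 1 CG was found in 17 of the 18 windows, and in 95.9% of all windows. The 7 windows whose region had the largest first-set sum are shown 5′ to 3′ on the gene's strand, with each CG in capitals, as the gene starts reached by the regions with the most summed value, not by the largest ratios. CG reads the same on both strands.
Olfr12: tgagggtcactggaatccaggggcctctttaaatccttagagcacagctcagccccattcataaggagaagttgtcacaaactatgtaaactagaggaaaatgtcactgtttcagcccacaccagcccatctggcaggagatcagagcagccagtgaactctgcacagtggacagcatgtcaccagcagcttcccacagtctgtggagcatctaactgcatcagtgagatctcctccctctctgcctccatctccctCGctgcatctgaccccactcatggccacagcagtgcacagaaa
Ptpn5: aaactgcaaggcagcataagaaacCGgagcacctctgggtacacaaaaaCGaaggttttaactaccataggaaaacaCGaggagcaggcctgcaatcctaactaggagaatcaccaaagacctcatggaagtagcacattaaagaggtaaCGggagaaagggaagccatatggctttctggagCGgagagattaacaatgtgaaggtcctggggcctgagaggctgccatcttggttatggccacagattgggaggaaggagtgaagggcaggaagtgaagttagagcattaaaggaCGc
Fam180a: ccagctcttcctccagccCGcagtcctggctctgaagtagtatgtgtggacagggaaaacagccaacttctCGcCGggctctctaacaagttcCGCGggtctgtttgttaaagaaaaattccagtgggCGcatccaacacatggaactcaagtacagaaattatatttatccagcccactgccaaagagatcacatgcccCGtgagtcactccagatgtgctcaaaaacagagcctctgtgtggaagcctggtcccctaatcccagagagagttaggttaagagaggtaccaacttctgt
Pakap: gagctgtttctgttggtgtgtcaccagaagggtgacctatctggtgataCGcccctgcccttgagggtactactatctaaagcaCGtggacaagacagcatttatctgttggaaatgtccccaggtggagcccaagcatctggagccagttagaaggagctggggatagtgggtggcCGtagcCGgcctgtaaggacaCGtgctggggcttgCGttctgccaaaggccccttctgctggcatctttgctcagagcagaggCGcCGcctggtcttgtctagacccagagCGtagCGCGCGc
Pmp22: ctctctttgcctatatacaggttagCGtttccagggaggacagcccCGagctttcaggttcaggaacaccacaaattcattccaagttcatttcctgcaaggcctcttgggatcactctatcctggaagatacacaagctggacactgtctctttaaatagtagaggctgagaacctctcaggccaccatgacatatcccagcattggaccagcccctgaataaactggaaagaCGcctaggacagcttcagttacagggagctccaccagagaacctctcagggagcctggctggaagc
Fbln1: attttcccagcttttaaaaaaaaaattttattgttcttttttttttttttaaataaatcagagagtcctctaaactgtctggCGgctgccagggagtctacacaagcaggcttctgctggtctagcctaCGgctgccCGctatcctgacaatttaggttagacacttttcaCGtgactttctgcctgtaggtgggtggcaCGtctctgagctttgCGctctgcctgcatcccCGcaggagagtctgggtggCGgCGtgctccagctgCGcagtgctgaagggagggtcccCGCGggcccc
Plce1: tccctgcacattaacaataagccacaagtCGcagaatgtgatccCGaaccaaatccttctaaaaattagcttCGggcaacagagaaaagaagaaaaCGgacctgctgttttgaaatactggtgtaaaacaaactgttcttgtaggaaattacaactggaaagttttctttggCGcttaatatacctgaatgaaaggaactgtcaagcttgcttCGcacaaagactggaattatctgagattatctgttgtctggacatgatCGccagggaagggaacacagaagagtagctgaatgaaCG

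These genes were singled out after their values were seen. The Olfr12 window, at the start of an olfactory receptor gene, lies at chr1:92619631-92619930 on the plus strand and held 1 CG. Its region had values of 353, 302 and 334 in the first set and 50, 3 and 13 in the second set of the authors' deposited table. Olfactory receptors form a large family of similar sequences, and the sources used here do not say how reads that match several places were counted. The Ptpn5 window, at a tyrosine phosphatase gene known from the brain (chr7:47133635-47133934, minus strand), held 6 CG, and its region had 239, 141 and 197 in the first set against 13, 1 and 22. At the Fam180a window (chr6:35326092-35326391, minus strand, 7 CG) the values were 201, 184 and 163 against 47, 34 and 15. In each of these 3 regions the sets lay apart, while the 3 second-set values differed among themselves by at least 3 times.

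The Pakap window shown (chr4:57567580-57567879, plus strand, 12 CG) is at a start inside the gene, whose span begins at base 57434475 of chromosome 4. The authors' deposited table gives its region 197, 127 and 196 in the first set and 0, 0 and 5 in the second. Pmp22 encodes a protein of peripheral myelin, and its window (chr11:63128732-63129031, plus strand, 3 CG) touched a region with 163, 122 and 133 against 7, 30 and 29. Fbln1 encodes the matrix glycoprotein fibulin-1. At its window (chr15:85205699-85205998, plus strand, 12 CG) the values were 99, 109 and 127 against 2, 43 and 16. Plce1 encodes a phospholipase C, and the window (chr19:38523947-38524246, plus strand, 8 CG) touched a region with 96, 81 and 107 against 14, 21 and 8. A start of Cyp26b1, the retinoic acid-degrading enzyme, was also among the 18, with 54, 53 and 44 against 15, 11 and 5.

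The table's limits bear on every value. Depth is unknown, since the table gives no library totals. The sources used here do not say whether the values were corrected for the inputs, so more of the mark and more DNA at a place cannot be told apart. In bulk chromatin, more cells with the mark and more of it per cell cannot be told apart either. Places not listed have no value in the table, and 1 of 15 fibroblast markers held a listed region, so the cell type label could not be checked from it. Nnmt itself held no 4-fold region: its span (chromosome 9, 48538002 to 48607655) held 22 listed regions, of which 6 were higher in the first set, with sums over them of 1575, 1702 and 1648 in the first set and 2085, 1946 and 1856 in the second.

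The 4-fold regions were short and mostly under 10-fold. Their median length was 350 bp, with quartiles of 250 and 550 bp, against 450 bp for all autosomal regions. Only 396 were 1 kb or longer and 14 were 5 kb or longer, and together they covered 2.23 Mb. The ratio had a median of 5.41, with quartiles of 4.52 and 7.62. It was at least 6 in 1749 regions (40.3%), at least 10 in 687 (15.8%) and at least 16 in 338 (7.79%). The first-set sum ran from 100 to 11797 with a median of 209, and 199 regions had a sum of 1000 or more.

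The set with the low values varied more between its libraries. The median ratio of highest to lowest library was 1.4 in the first set, near the 1.44 of all autosomal regions, and 3.0 in the second set over the 3496 regions with no second-set value of 0, against 1.54. In the regions chosen by the same rule with the sets exchanged it was the other way round, with 3.27 in the first set and 1.52 in the second. In 843 regions at least 1 second-set value was 0. Summed over all 4-fold regions, the values were 504360, 499492 and 483777 in the first set and 84417, 75737 and 91535 in the second. The lowest first-set value was at least 2 times the highest second-set value in 3785 regions (87.2%) and at least 4 times in 1210 (27.9%). The separation of the libraries removed only 14 regions that met the other conditions. Per kb of region, the median first-set sum was 616 in 4-fold regions and 553 in all 156222 autosomal regions higher in the first set, while the median second-set sum was 110 against 307. Both levels are shaped by the rule, through the minimum sum in short regions and through the ratio.

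At the threshold, 3 regions just inside it, each at a ratio of 4, lay in Mcmdc2, in Tnfsf4 and 67.7 kb from Slc16a9, with first-set sums of 103, 171 and 199. The 3 just outside it, each at 3.99, lay 94022 bp from Magi1, 162 kb from Dysf and 46.6 kb from Igf1r, with first-set sums of 682, 518 and 462.

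The largest 4-fold regions lay over HoxC, Nup210 and Fbln1, and at a few places between genes. The region with the largest sum (chromosome 15, 102943301 to 102955000) overlapped Hoxc11, a posterior patterning gene, and Hotair, a long noncoding RNA of the same cluster. The authors' deposited table gives it 3998, 4101 and 3698 in the first set and 916, 782 and 882 in the second. The ratio was 4.57, and over the 9 pairs of a first-set and a second-set library it ran from 4.04 to 5.24.

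Nup210, which encodes a membrane protein of the nuclear pore, held 3 of the 12 largest. The longest of all 4-fold regions, 12350 bp (chromosome 6, 91088301 to 91100650), had 3883, 3809 and 3905 in the first set and 458, 451 and 389 in the second set of the authors' deposited table. Its ratio was 8.93, and single pairs of libraries gave 8.32 to 10. A neighbour at 91064251 to 91072500 had 2717, 2423 and 2601 against 482, 493 and 648. One at 91103651 to 91110150 had 1892, 2165 and 1724 against 508, 439 and 426. The middle one of these 3 stood apart from the others, at 8.93-fold against 4.77-fold and 4.21-fold. Over the whole Nup210 span 33 of 33 listed regions were higher in the first set, with a ratio of sums of 2.65.

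Fbln1 held a region of 8500 bp (chromosome 15, 85236201 to 85244700) with values of 2787, 2629 and 2576 in the first set and 594, 590 and 576 in the second set of the authors' deposited table. The sets were far apart and the libraries of each set close together. The ratio was 4.54, with 4.34 to 4.84 for single pairs of libraries. Another of 5650 bp lay 3.6 kb from the gene's span, at 4.36-fold. Pakap, which encodes paralemmin and A-kinase anchor proteins, held the region with the widest gap of the 12 (chromosome 4, 57515251 to 57523100), with 2325, 2309 and 2125 against 138, 113 and 168.

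The other 5 of the 12, like the one beside Fbln1, lay in no named gene. One of 8100 bp lay 29988 bp from Tm2d3 (chromosome 7, 65731901 to 65740000), with 2448, 2404 and 2378 against 553, 488 and 522 in the authors' deposited table. Regions at 52945 bp and 10045 bp from Map4k3, a protein kinase gene, were 5.6-fold and 4.62-fold higher. The one 50.8 kb from Hoxc13 was 4.48-fold and the one 4.3 kb from Atl2, which encodes an atlastin of the endoplasmic reticulum, 5.06-fold higher. In all 12 regions the lowest first-set library stood at least 3.39 times above the highest second-set library.

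**Figure D1:**
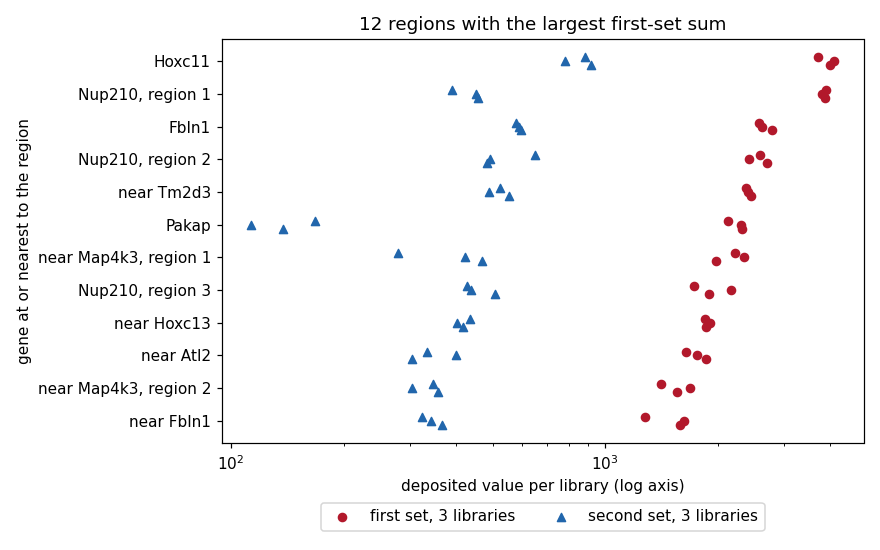
Deposited value of each library (log axis) for the 12 4-fold regions with the largest first-set sum, with circles for the 3 libraries of the first set and triangles for the 3 of the second, labelled by the gene at or nearest to the region. Circles and triangles stay separate for each of the 12, and the gap is widest in Pakap (2125 to 2325 against 113 to 168).

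In 30 4-fold regions the second set was listed at 0 in all 3 libraries. They were 150 to 600 bp long and had first-set sums of 100 to 430. Of the 30, 14 lay on chromosome 4 and 9 of these in Pakap, and the 30 were spread over 13 chromosomes. The largest, at 57563401 to 57564000 in Pakap, had 157, 118 and 155 in the first set of the authors' deposited table. Next came 57545901 to 57546450 with 148, 123 and 132, and 57551451 to 57551850 with 115, 85 and 84.

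Outside Pakap, a region in Mylk, which encodes myosin light chain kinase, had 96, 61 and 97 in the first set (chromosome 16, 34809551 to 34809900). A region 1.49 kb from Cyp1b1, a cytochrome P450 gene, had 73, 85 and 72 (chromosome 17, 79716551 to 79716850). One in Nfia, a transcription factor gene, had 60, 82 and 73 (chromosome 4, 97758001 to 97758300), and one 46.4 kb from Dio3os had 52, 82 and 34 (chromosome 12, 110228751 to 110229000). All of these had 0 in each second-set library of the authors' deposited table, so no ratio is given. They are short regions with low sums, and 0 in a list with unknown scaling is not shown to be absence of the mark.

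The 4-fold regions lay in groups. The median gap between neighbouring ones on a chromosome was 5.12 kb, and 3853 of 4339 (88.8%) lay within 100 kb of another, 3215 (74.1%) within 10 kb. Listed regions of any kind were denser, with a median gap of 0.5 kb, and no share within 100 kb of another is given for them. In the regions chosen with the sets exchanged, 83.2% lay within 100 kb of another, so grouping was not particular to the first set. Joining 4-fold regions less than 100 kb apart gave 991 clusters: 486 of a single region, 397 of 2 to 9 and 108 of 10 or more. The 108 held 2389 of the 4-fold regions (55.1%) in 17.7 Mb, with a median span of 132 kb. The 13 clusters of 40 or more held 844 (19.5%).

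The regions between and beside 4-fold regions leaned the same way. In the 108 clusters of 10 or more there were 9561 other listed regions, of which 9541 (99.8%) were higher in the first set, and in 100 of the 108 clusters every listed region was. Next to a 4-fold region, the adjacent listed region that was not itself 4-fold was higher in the first set in 6832 of 6866 cases (99.5%), with a median ratio of 3.46. Over all autosomal regions an adjacent region was higher in the first set in 59.2% of cases, with a median ratio of 1.33. Within 50 kb outside the edges of the 108 clusters, 2457 of 2566 listed regions (95.8%) were higher in the first set. Neighbouring regions share the same libraries and are not independent, so no test is given.

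The cluster with the most 4-fold regions, 115, covered 270 kb of chromosome 4 (57355051 to 57625150), and 100 of its regions lay in Pakap. All 276 listed regions in it were higher in the first set. Of the 161 that were not 4-fold regions, 133 reached a ratio of 4, and 132 of these had a first-set sum under 100. The difference was uneven along it. In the first 50 kb the summed values were 2.98-fold higher and in the next 50 kb 2.0-fold, then 11.6-fold, 20.7-fold and 49.8-fold in the 50 kb steps that followed. In the 49.8-fold step (57555051 to 57605050) the sums were 11108 in the first set and 223 in the second. The 26 listed regions within 50 kb outside the cluster all lay before its start, next to the low steps. Their sums were 1.58-fold higher in the first set.

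A second cluster, with 106, spanned 465 kb of chromosome 11 (55528151 to 55993550). It started in Glra1, which encodes a subunit of the glycine receptor, and ran on towards Nmur2, a neuropeptide receptor gene that begins 31.4 kb beyond it. The 50 kb at the Glra1 end were highest, at 9.58-fold, with 30 of the 4-fold regions, and the steps after it ran from 3.0-fold to 8.94-fold. The 8.94-fold step rested on 7 listed regions with sums of 322 and 36. Its region with the largest sum lay 45.4 kb from Nmur2, with 1399, 1605 and 1216 in the first set and 225, 224 and 377 in the second set of the authors' deposited table. In Glra1 the largest region had 823, 776 and 577 against 85, 32 and 99.

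The third cluster lay over Plce1 on chromosome 19 (38446601 to 38774750), with 97 4-fold regions, 91 of them in the gene. All 291 listed regions were higher in the first set, by 3.71-fold in sum. Along it the ratio ran from 2.05 in the first 50 kb to 6.08 in the step at 38646601 to 38696600, which held 28 4-fold regions. The largest of these had 1373, 1325 and 1295 in the first set and 344, 271 and 347 in the second set of the authors' deposited table.

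The cluster on chromosome 2 (75123251 to 75593450, 96 4-fold regions) lay in no named gene, 247 kb past Mtx2 and 65.7 kb before Hnrnpa3. All 453 of its listed regions were higher in the first set and its 50 kb steps were alike, between 2.82-fold and 5.04-fold. Its largest region had 1037, 1046 and 1182 in the first set and 151, 177 and 153 in the second set of the authors' deposited table. Another cluster without a named gene lay on chromosome 6 (98536301 to 98858700, 47 4-fold regions), 66.6 kb before Foxp1, which encodes a forkhead transcription factor. Most of the 47 lay in the last 4 steps of 50 kb, with 13, 21, 8 and 3 at 4.42-fold, 5.26-fold, 4.11-fold and 3.72-fold, while the 3 steps before them were at 1.92-fold to 2.34-fold.

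Mylk carried most of the cluster on chromosome 16 (34622901 to 34992200, 66 4-fold regions). Its listed regions covered only 15.3% of the span, and all 249 were higher in the first set, by 7.02-fold in sum. The 50 kb step at 34822901 to 34872900 stood at 15.5-fold, with sums of 9265 and 596, against 2.68-fold in the first step. The largest Mylk region had 526, 495 and 484 in the first set and 26, 49 and 27 in the second set of the authors' deposited table.

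The remaining clusters of the 8 largest lay over and before Pcsk6 on chromosome 7 (65731901 to 65983150, 59 4-fold regions, 37 in the gene) and beside Cyp26b1 on chromosome 6 (84259451 to 84594150, 47, of which 1 in the gene). Pcsk6 encodes a proprotein convertase. In its cluster the step at 65781901 to 65831900, outside the gene, was 9.89-fold higher, between steps of 3.13-fold and 2.21-fold. In the Cyp26b1 cluster the steps ran from 1.9-fold to 5.67-fold. Its largest region, 170 kb from that gene, had 611, 461 and 496 in the first set and 99, 138 and 99 in the second set of the authors' deposited table.

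**Figure D2:**
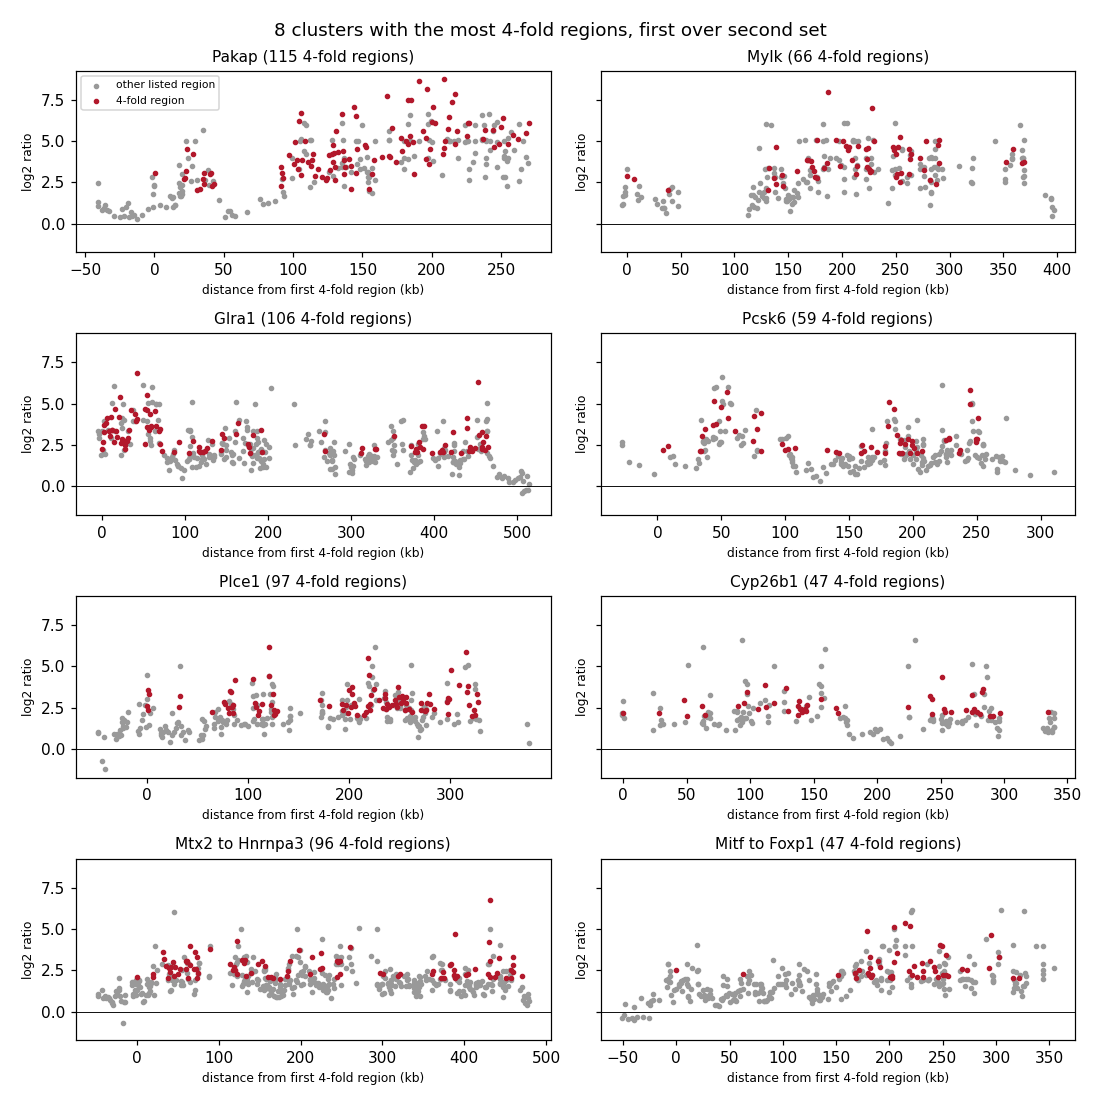
Log2 ratio of first-set over second-set sums (pseudocount 1) of every listed region in the 8 clusters with the most 4-fold regions and 50 kb on either side, against distance from the first 4-fold region in kb, with 4-fold regions in red and other listed regions in grey. Nearly all points lie above 0 and 4-fold regions are interspersed with others, the Pakap cluster reaching the highest ratios.

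The HoxC cluster held 40 4-fold regions between bases 102782051 and 103002050 of chromosome 15, and 37 of them lay before Hoxc13, outside the Hox genes. Those 37 had summed values of 27257 in the first set and 3692 in the second, a ratio of 7.38. Within the Hox genes the 4-fold regions were the one over Hotair, which reached the edge of Hoxc11, and short ones in Hoxc6. The largest in Hoxc6 was 300 bp long with 74, 58 and 55 in the first set and 0, 12 and 18 in the second set of the authors' deposited table.

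Chromosome 4 held the most 4-fold regions, 510 of 4339 (11.8%), with 5.69% of the listed regions. This was 34.0 per 1000 listed regions, against 16.4 over all autosomes. Chromosome 17 followed with 23.4, chromosome 16 with 21.3 and chromosome 11 with 20.2 per 1000. Chromosome 13 was lowest with 42 regions, 4.98 per 1000, and chromosome 5 had 7.12. The share of listed regions higher in the first set at all was 86.0% on chromosome 4, 72.0% on chromosome 17 and 51.2% on chromosome 13. Chromosome 16 went the other way, with 33.6% of its listed regions higher in the first set and yet 215 4-fold regions.

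**Figure D3:**
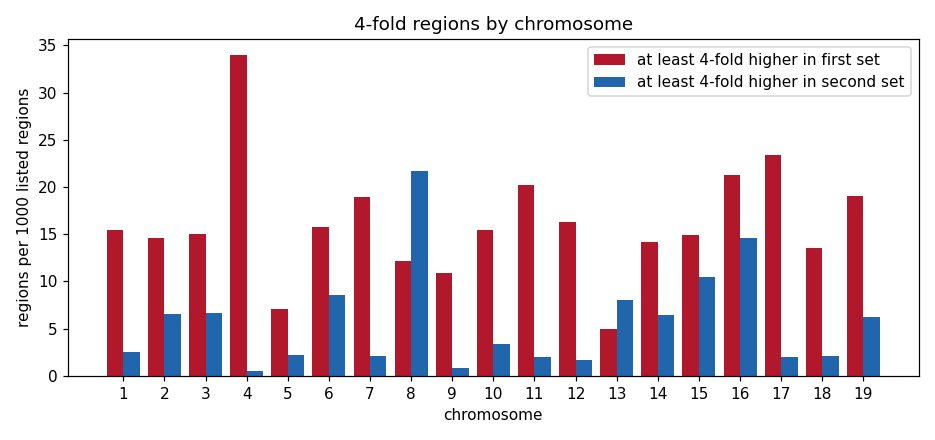
Number of 4-fold regions per 1000 listed regions on each autosome, for regions at least 4-fold higher in the first set and for those at least 4-fold higher in the second set by the same rule with the sets exchanged. Chromosome 4 is highest for the first set (34.0 against 0.466) and chromosome 8 for the second (21.7 against 12.2).

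On a scale of 10 Mb the regions were concentrated as well. Of 253 bins with a listed region, 37 held no 4-fold region, and the 10 bins with the most held 1133 (26.1%) with 7.13% of the listed regions. The bin at 50 to 60 Mb of chromosome 4, with Pakap, held 151, or 145 per 1000 listed regions. The bin at 60 to 70 Mb of chromosome 7, with Pcsk6, held 150, and that at 30 to 40 Mb of chromosome 19, with Plce1, held 128. On chromosome 16 the bins at 20 to 30 and 30 to 40 Mb held 81 and 109 of the 215. There 58.2% and 55.4% of listed regions were higher in the first set.

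Somewhat under 50% of the 4-fold regions lay in a named gene. Of 4339, 1807 (41.6%) overlapped the span of a named protein-coding or long noncoding RNA gene, 650 (15%) only another annotated span such as a predicted gene or pseudogene, and 1882 (43.4%) none. Among all autosomal regions the shares were 37.6%, 12.2% and 50.2%. The annotation gives spans alone, so exons and introns were not told apart. Outside named genes the median distance to the nearest one was 43.0 kb, against 37.8 kb over all, and 565 4-fold regions (13%, against 15.5%) lay over 100 kb from any.

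Distances to gene starts were like those of the list at large. A start was inside or within 1 kb in 70 of the 4236 4-fold regions with a measured distance (1.65%, against 1.95% of all autosomal regions) and within 10 kb in 667 (15.7% against 15.3%). It was over 100 kb away in 1345 (31.8% against 34.5%). Among all autosomal regions higher in the first set, 18.1% had a start within 10 kb and 27.2% had none within 100 kb. Within genes whose strand is in the promoter table, 1442 pairs of a 4-fold region and a gene were spread along the gene, with 323, 385, 260, 280 and 194 in successive equal parts of the gene from the 5′ end. Genes with many 4-fold regions weigh most in these counts. Counted once per gene, by its median 4-fold region, the same parts held 74, 73, 78, 84 and 48 of 357 genes. No like counts are given for all listed regions, so this spread cannot be called particular to 4-fold regions.

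**Figure D4:**
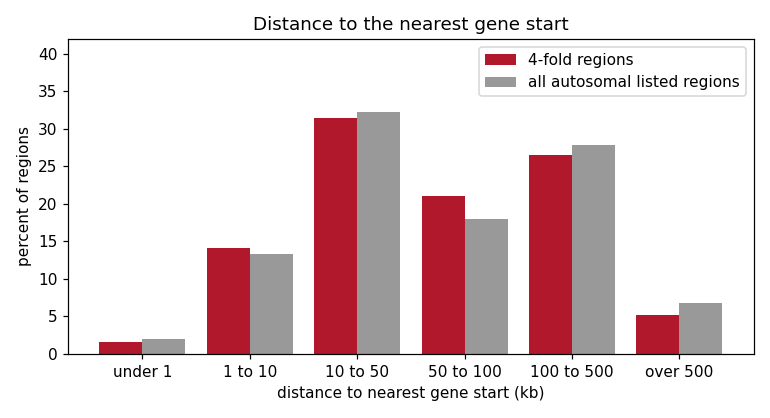
Percentage of 4-fold regions and of all autosomal listed regions by distance to the nearest gene start in kb. The bars of both kinds are close in each class, with 1.65% and 1.95% under 1 kb and 31.5% and 32.2% at 10 to 50 kb.

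Of 19646 named autosomal genes, 471 (2.4%) held a 4-fold region in their span, while 5577 (28.4%) held any listed region. The 471 were long, with a median of 62.4 kb against 25.7 kb for genes with any listed region and 18.2 kb for all. In 235 of them there was 1 4-fold region, and in 36 there were 10 or more. In 343 of the 471, every listed region was higher in the first set, with no like count given for all genes with a listed region. A region at least 4-fold higher in the second set lay in 5 of the 471, and in 155 (0.789%) of all 19646 named genes.

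The 10 genes with the most 4-fold regions held 499, or 27.6% of those in named genes. Pakap led with 100 and Plce1 followed with 91, both described above, as were Mylk with 63, Glra1 with 45 and Pcsk6 with 37. Summed over all listed regions in its span, Pakap was 10.3-fold, Mylk 9.59-fold and Glra1 7.57-fold higher, and Plce1 and Pcsk6 3.82-fold and 2.42-fold.

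Abr held 40 4-fold regions in 207 kb (chromosome 11, 76416732 to 76623324). Its largest had 1000, 1116 and 1027 in the first set and 95, 52 and 43 in the second set of the authors' deposited table. The ratio of 16.5 ran from 10.5 to 26.0 over pairs, since the second-set libraries differed by over 2 times. Galnt9, which encodes an enzyme that starts O-linked glycosylation, held 30 in 77.4 kb, with 23.7% of the gene in 4-fold regions. All 52 of its listed regions were higher in the first set, with sums of 14315 and 1033, a ratio of 13.9. The largest had 329, 372 and 383 against 21, 23 and 46.

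The other 3 of the 10 differed less in sum than Pakap, Mylk and Glra1. Lrmda, a gene of melanocyte differentiation of 1037 kb, held 38 4-fold regions among 543 listed ones, and its sums differed by 1.96-fold. Hivep3, a zinc finger factor gene, held 28 among 187, at 2.82-fold in sum. Iqch held 27 among 111, at 3.55-fold. Its largest had 490, 457 and 433 in the first set and 100, 79 and 72 in the second set of the authors' deposited table.

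Among gene lists, matrix and myofibroblast genes, which make and remodel the extracellular matrix or contract, held 4-fold regions in 14 of 110 cases, against 2.4% of all named genes and 8.45% of the 5577 genes with a listed region. Of this list 46 held a listed region. Only a gene with a listed region can hold a 4-fold one, and the lists differ in their share of such genes. The 8.45% applies to counts over those genes alone. Gene length was not taken into account in any list. A region at least 4-fold higher in the second set lay in 1 of the 110, and in 155 (0.789%) of all named genes. Besides Mylk and Fbln1 these included Tnr, the tenascin-R gene, with 22 regions, all 134 of its listed regions higher in the first set and a ratio of sums of 3.26. Des, which encodes the muscle filament protein desmin, had 3, the largest with 277, 220 and 281 against 57, 41 and 66 in the authors' deposited table. Genes for less abundant collagens were there (Col22a1, Col14a1, Col15a1, Col8a2 and Col18a1). Col22a1 went both ways: its largest 4-fold region had 338, 341 and 277 against 44, 67 and 67, yet 29 of its 89 listed regions were higher in the first set and its sums stood at 0.756.

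Regulators and markers of bone, cartilage, fat and muscle held 4-fold regions in 5 of 38 cases (13.2%, against the 2.4% of all named genes), with 22 holding a listed region and 0 a region 4-fold higher in the second set. These were Runx3, a runt-family factor, Dmp1, a matrix protein of bone and dentin, Adipoq, the adipocyte hormone adiponectin, Sp7, the osteoblast factor osterix, and Alpl, alkaline phosphatase. The authors' deposited table gives the Runx3 region 201, 194 and 130 in the first set and 24, 47 and 28 in the second. For Dmp1 they were 146, 154 and 186 against 30, 35 and 23. For Sp7 they were 71, 79 and 85 against 19, 12 and 2. In all 5 genes every listed region was higher in the first set.

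Ion channel genes held one in 8 of 86 cases (9.3%, against 2.4%), and 63 held a listed region. Of all genes with a listed region, 8.45% held a 4-fold region. A region 4-fold higher in the second set lay in 9 of the 86 (against 0.789% of all named genes), so this list went both ways. The first-set counts were led by Glra1 (45), Kcnma1 (10), Cacna1a (4) and Cacna1c (3). Kcnma1 encodes a calcium-activated potassium channel, and 275 of its 429 listed regions were higher in the first set, with sums 1.24-fold higher. Its largest 4-fold region had 485, 516 and 452 against 108, 60 and 104 in the authors' deposited table. Cacna1a, a calcium channel gene, had 109 of 109 listed regions higher in the first set and sums of 2.26-fold. Synapse and neuronal adhesion genes held one in 4 of 62 cases (6.45%), while 10 of the 62 held a region 4-fold higher in the second set. Syn3, a synapsin gene, led the first kind with 16. Its largest region had 385, 322 and 284 against 75, 35 and 27.

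Developmental transcription factors held 4-fold regions in 3 of 119 cases (2.52%), a share near that of all named genes. However, 70 of the 119 held a listed region, and 8.45% of all genes with a listed region held a 4-fold one. The 3 were Pax8, a paired-box gene, with 6, and Gata4 and Tbx2 with 1 each. The Gata4 region had 132, 105 and 144 in the first set and 25, 9 and 19 in the second set of the authors' deposited table. The largest Pax8 region had 48, 115 and 46 against 3, 0 and 2. Over all listed regions of each gene the sums were 1.47-fold higher in Gata4, 1.81-fold in Tbx2 and 4.68-fold in Pax8. Hox genes held a 4-fold region in 3 of 40 cases (7.5%, against 2.4% of all named genes), all in HoxC. Of the 40, 28 held a listed region, to which the 8.45% applies. Of the 3, Hoxc11 and Hotair shared 1 region.

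Signalling genes held a 4-fold region in 5 of 107 cases (4.67%, against 2.4% of all named genes). A listed region lay in 59 of the 107, and 8.45% of all genes with a listed region held a 4-fold one. The 5, each with 1, were Wnt6, Wnt3, the Wnt antagonist gene Sfrp2, the Wnt agonist gene Rspo1 and the growth factor gene Fgf1. In 2 of the 107 a region was 4-fold higher in the second set. In Wnt6 the values were 78, 106 and 77 against 12, 3 and 6, and in Sfrp2 40, 52 and 65 against 5, 0 and 1, in the authors' deposited table. Over all listed regions of each gene the sums were 1.54-fold higher in Wnt6, 2.27-fold in Wnt3, 2.23-fold in Rspo1 and 3.8-fold in Fgf1. In Sfrp2 they were 186 and 8, a ratio of 23.2. Cytokine and chemokine genes held a 4-fold region in 3 of 51 cases (5.88%, against the same 2.4%), namely Il1a, Cxcl9 and Lta. A listed region lay in 22 of the 51. Il1a, the interleukin-1 alpha gene, had 83, 89 and 86 against 22, 14 and 10, and all 14 of its listed regions were higher in the first set.

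Solute carriers held one in 12 of 381 cases, a share of 3.15% against 2.4%. A listed region lay in 180 of the 381, and 8.45% of all genes with a listed region held a 4-fold one. In 4 solute carriers a region was 4-fold higher in the second set. Slc43a2, an amino acid transporter gene, held 14 and Slc1a2, a glutamate transporter gene, held 12. Slc2a3, a glucose transporter gene, held 7. The largest Slc2a3 region had 401, 479 and 416 in the first set and 80, 112 and 106 in the second set of the authors' deposited table. Slc44a5 held 5, but 67 of its 156 listed regions were higher in the first set. Adhesion G protein-coupled and monoamine receptors held one in 2 of 43 cases (4.65%): Adgrg1, with 10, the largest at 188, 205 and 198 against 4, 9 and 16, and Adra1b, with 1. Cadherins held one in 2 of 41 cases (4.88%, against 2.4%), Cdh22 with 7 and Cdh23 with 3, and 3 held a region 4-fold higher in the second set. Axon guidance genes held one in 1 of 55 (1.82%), Ntn1, and 3 held a region of the other kind.

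In other lists 1 or 0 genes held a 4-fold region, for several of them a share near the 2.4% of all named genes. Of 44 genes of Polycomb complexes, H3K27 demethylases and DNA methyltransferases, Phc2, a Polycomb repressive complex 1 subunit gene, was the 1 (2.27%) with 4-fold regions. It held 3, the largest at 261, 198 and 233 against 25, 31 and 82 in the authors' deposited table. Over all 34 listed regions of Phc2 the sums were 1.77-fold higher in the first set. Of 48 genes of NAD, methionine and methyl donor metabolism, 0 held a 4-fold region, while 12 held a listed region. Of 36 housekeeping genes 1 held a 4-fold region (2.78%), Ywhaz, with 149, 147 and 162 against 58, 34 and 9. Zinc finger genes (1 of 397, Zfp13), olfactory and vomeronasal receptors (1 of 1458, Olfr12) and keratins (0 of 112) were at or near 0, and 3 zinc finger genes held a region 4-fold higher in the second set. A listed region lay in 42 of the zinc finger genes, 140 of the receptors and 56 of the keratins. It lay in 1 of the housekeeping genes and in 8 of the 44 Polycomb, demethylase and methyltransferase genes.

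Among markers of other cell types, Vwf of endothelial cells (1 of 16, 6.25%) held 4-fold regions. So did Lck of T cells (1 of 23 immune and blood markers, 4.35%), and 0 of 20 epithelial, 0 of 18 neuronal and 0 of 15 fibroblast markers did. The share was 2.4% of all named genes and 8.45% of those with a listed region. A listed region lay in 11 of the endothelial, 20 of the immune and blood, 9 of the epithelial, 11 of the neuronal and 1 of the fibroblast markers. The largest Vwf region had 114, 60 and 82 in the first set and 12, 13 and 23 in the second set of the authors' deposited table. Over all listed regions of each gene the sums were 1.26-fold higher in Vwf and 2.27-fold in Lck.

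**Figure D5:**
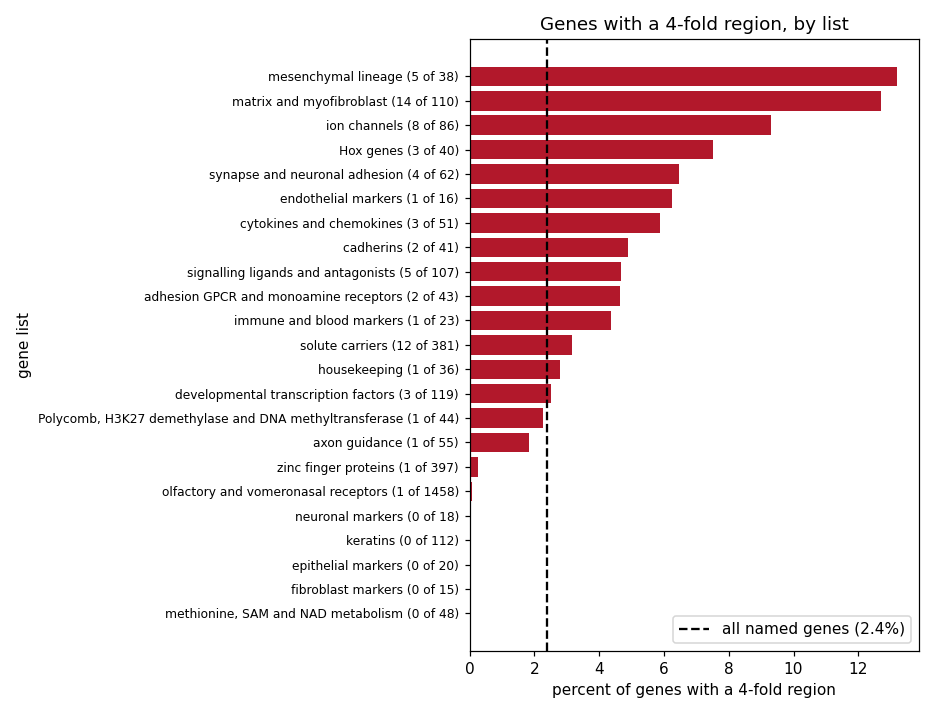
Percentage of the autosomal genes of each list with a 4-fold region in their span, with bars from 0, the counts beside each name and a dashed line at the share of all named genes (2.4%). Mesenchymal lineage genes (5 of 38) and matrix and myofibroblast genes (14 of 110) have the longest bars, and 5 lists have none. The lists differ in their share of genes with a listed region.

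With the sets exchanged, the same rule gave 1507 regions, 0.571% of the autosomal ones. Their median length was 300 bp, and 31.8% lay in a named gene, against 41.6% of those higher in the first set. Of the 1507, 658 (43.7%) lay over 100 kb from any named gene, against 13%. Of them 83.2% lay within 100 kb of another, against 88.8%, with a median gap of 11.3 kb against 5.12 kb. They formed 402 clusters with up to 131 regions, and 28 clusters of 10 or more against 108. Chromosome 8 held 355 of them and chromosome 4 held 7. No test of these differences was made, since neighbouring regions are not independent and both kinds were chosen by their values. Summed over all autosomal regions, the values were 1.14-fold higher in the first set, and the rule was applied without rescaling. With the sets rescaled to equal sums, 2947 of the 4339 first-set regions remained. No rescaled count is given for the exchanged rule, so how far scale shapes the difference between 4339 and 1507 was not tested.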

How the data were processed

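The submitters' processing notes name GRCm38 as the mouse build and list CASAVA, Trimmomatic 0.36 and BWA 0.7.17. The sources used here do not give the caller, its scaling, its use of the inputs or its filters. The authors deposited 1 table of regions with no header. Its column 11 holds 3 whole numbers for each of 2 unnamed sets and another number read as −log10 p, and was used as deposited. Since scaling is unknown, the values were not treated as read counts and no count model was fitted.

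Regions were selected by the rule, joined into clusters where less than 100 kb apart, and overlapped with 19646 named autosomal genes of RefSeq GRCm38.p6 (protein-coding or long noncoding, without predicted Gm, LOC and Rik symbols) and with promoter windows of 15644 of them (none on chromosome 18), using Python 3.11.15 with pandas 2.3.3 and numpy 2.4.6. The code of the selection was checked on simulated data with large planted differences and counting noise alone. That check does not show how the rule performs on the deposited values. Ratios are of sums plus a pseudocount of 1. The named regions were the 12 largest by sum and by ratio, the 5 longest, the 8 largest clusters, the 10 genes with the most regions, up to 4 genes per list by largest sum, and the 3 regions on either side of the ratio threshold. Other genes were named after their values were seen. The members and gene lists were chosen with earlier results of these data known. The table does not tie a value to a labelled library, so ranges are given without a mean ± SD. The alternatives tried were other thresholds, pseudocounts, scaling, gene flanks and joining distances, and leaving out each library in turn.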

Additional observations from a re-analysis of the deposited data

How the results depend on the processing

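No paired analysis was possible because the table's values carry no replicate numbers and no test was made. The number of regions followed the thresholds: 8874 at a ratio of 3, 1749 at 6, 8697 at a first-set sum of 50 and 2327 at 200. Clusters numbered 1742, 472, 1535 and 588 in these settings, and 614 when joined within 500 kb. The share in a named gene was 38.7% and 47.2% at ratios of 3 and 6. It was 44% at a sum of 200, 44.3% with a pseudocount of 10, 44.5% with the sets rescaled to equal sums and 44.4% with 2 kb added to each gene side. The share near another such region was 91.2%, 85.8% and 92.1% at ratios of 3 and 6 and a sum of 50, and 87.3% rescaled. Within 25 kb it was 81.7% and within 500 kb 94.9%. Rescaling kept 2947 of the 4339 regions. Chromosome 4 held the most in every threshold, pseudocount, rescaling and left-out-library setting, with 14.8% at a ratio of 6. Leaving out each library in turn gave 4407 to 5641 regions, 1034 to 1410 clusters, 39.9% to 41.6% in genes, 85.9% to 88.8% within 100 kb and 11.1% to 11.9% on the leading chromosome. Of the 4339, 79.7% to 92.5% were chosen again. Without the 8 largest clusters, a setting chosen after seeing the data, these shares were 39.6%, 86.9% and 10.7%. Depth is unknown, so the counting error of small regions cannot be given.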
